A study of Rattus norvegicus with 13 samples.

Results

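The microRNAs described here are the 4 mature strands of the rat genes for miR-192 and miR-194, namely rno-miR-192-5p, rno-miR-192-3p, rno-miR-194-5p and rno-miR-194-3p (written below without the rat prefix). They were taken by name from the 460 mature rat miRNAs of a small RNA sequencing study of the kidney, and all 4 were present in all 13 libraries. The animals were female WAG/RijCmcr rats, an inbred Wistar strain, aged 11 to 12 weeks and weighing about 155 g, as given for the time of irradiation. Control rats (n = 4) received 0 Gy and no lisinopril. Irradiated rats (n = 4) received 13 Gy of X-rays from a 320 kVp tube at 1.75 Gy per min to the body apart from a single hind limb, which was kept outside the field (leg-out partial body irradiation, a model in which the marrow of the shielded limb survives). The last group (n = 5) was irradiated in the same way and had lisinopril, which blocks angiotensin converting enzyme, in its drinking water at about 24 mg per square metre daily, starting on day 7. Saline injections on days 3 to 7 and enrofloxacin, an antibiotic, up to day 14 were given as supportive care, and the labels do not say whether the controls received them. All kidneys were taken at day 35, and each library holds RNA of the whole mixture of kidney cells.

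A miRNA is cut as a short duplex from a hairpin transcript. Usually a single strand of the duplex, the guide, is kept by an Argonaute protein and represses messenger RNAs that match its seed, while the passenger strand is degraded. miR-192 and miR-194 are made together from a shared transcript, are abundant in the epithelium of kidney tubules, intestine and liver, and depend on hepatocyte nuclear factors for their transcription. The tumour suppressor p53 can induce both, and miR-192-5p is known in kidney disease for repressing Zeb1 and Zeb2, repressors of epithelial genes that also respond to TGF-beta.

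Mature sequences are shown because the seeds decide which members can act on the same targets. They are from RefSeq on the GRCr8 build, 5′ to 3′, with bases 2 to 8 (the seed) in capitals.
miR-192-5p: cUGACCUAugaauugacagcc
miR-215: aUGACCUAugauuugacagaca
miR-194-5p: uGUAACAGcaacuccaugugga
miR-192-3p: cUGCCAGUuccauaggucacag
miR-194-3p: cCAGUGGGgcugcuguuaucu
The seeds of the 4 members all differ. miR-192-5p shares its seed with miR-215 and with no other measured rat miRNA whose sequence was at hand (415 of 460 names matched), and the other 3 members share theirs with none of these. Over 21 positions counted from the 5′ end, miR-192-5p and miR-215 are identical at 18, with the substitutions C1A, A12U and C20A.

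The genes form 2 pairs. Mir194-2 and Mir192 lie head to tail on the plus strand of chromosome 1 (GRCr8 chr1:212994024-212994108 and chr1:212994209-212994318), separated by 100 bases, between the coding genes Atg2a and Ehd1 and inside neither. A second copy, Mir194-1, is paired with Mir215 on the plus strand of chromosome 13 (chr13:99382716-99382798 and chr13:99382990-99383086), 191 bases apart, within the span of Iars2, a mitochondrial isoleucyl-tRNA synthetase gene. Whether exon or intron was not resolved, since only gene spans were used. The hairpins of the chromosome 1 pair are given with their mature strands in capitals, to show which strand each count belongs to.
Mir194-2: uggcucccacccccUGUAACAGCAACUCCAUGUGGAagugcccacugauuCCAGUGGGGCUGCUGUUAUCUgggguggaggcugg
Mir192: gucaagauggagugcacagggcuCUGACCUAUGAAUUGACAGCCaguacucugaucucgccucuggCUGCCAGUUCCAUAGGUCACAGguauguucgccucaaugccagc
The sequence of miR-194-5p stands in 2 hairpins, Mir194-2 and Mir194-1, so its reads cannot be assigned to a chromosome. That of miR-194-3p stands in Mir194-2 only. The best matching stretch of the Mir194-1 hairpin, cCAGUGGAgcugcuguuacuu (bases 2 to 8 in capitals), is identical at 18 of 21 positions, with the substitutions G8A, U19C and C20U counted from the 5′ end of miR-194-3p. miR-194-3p, miR-192-5p and miR-192-3p therefore report on chromosome 1 as far as these sequences go, miR-215 reports on chromosome 13, and miR-194-5p sums both.

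Rat mature miRNA counts totalled 1194175 to 11095939 per library. The lowest total was that of control library 2, in which 37 rat miRNAs had no read, against 0 to 3 in the others. This library also differed in make-up. Entries of other species held 29.0% of its mature miRNA counts, against 10.3% to 14.6% in the others. miR-10a-5p held 44.2% of its rat counts, against 28.9% to 37.7%. The irradiated libraries, at 4885082 to 6786492 counts, were shallower than control libraries 1, 3 and 4, at 8459787 to 9426318. The part of depth in that comparison was not tested. Levels are given as CPM, the usual unit of read counts relative to the scaled size of the library. A level of 3 counts, taken as the lowest detectable, was 3.19 CPM in control library 2 and 0.289 to 0.561 CPM in the others; such limits cover counting error only. Single miRNAs were tested in edgeR (quasi-likelihood), and their p-values were adjusted by Benjamini-Hochberg across the 419 rat miRNAs tested, with a threshold of 0.05. All 4 members were among the 419.

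miR-192-5p was among the most abundant miRNAs of the kidney. It made up 4.13% to 9.04% of rat mature counts and ranked between 2nd and 5th in every library. Over all libraries its mean of 66811 CPM was the third highest, below miR-10a-5p, a Hox-locus miRNA, and miR-30a-5p, a tubular miRNA. miR-194-5p followed at rank 27 with a mean of 4057 CPM and a range of 2922 to 5188 CPM. The passenger strands lay far lower: miR-192-3p had a mean of 39.5 CPM (rank 192) and miR-194-3p of 20.5 CPM (rank 244). The order miR-192-5p, miR-194-5p, miR-192-3p, miR-194-3p held in 13 of 13 libraries. miR-215, with a mean of 17.2 CPM, was below miR-194-3p in 8 of 13 libraries, so that the levels of these last neighbours overlapped. miR-215 contributed 0.0187% to 0.0396% of the reads that carry the seed it shares with miR-192-5p.

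**Figure D1:**
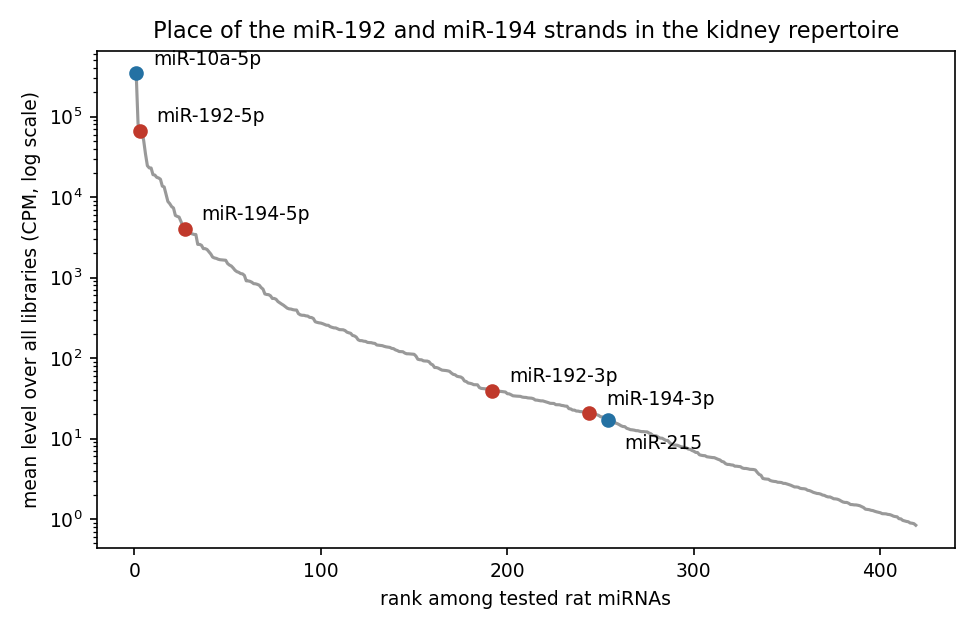
Mean level over 13 libraries in CPM (log scale) against rank for the 419 tested rat miRNAs (grey line), with the miR-192 and miR-194 strands in red and miR-10a-5p and miR-215 in blue. miR-192-5p stands at rank 3, miR-194-5p at rank 27, and both 3p strands lie below 50 CPM.

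The difference between the strands was large for both hairpins. Summed over all libraries, miR-192-5p outnumbered miR-192-3p by 1690 to 1, the sixth largest imbalance among 120 miRNAs with both strands tested. For miR-194 the 5p strand outnumbered the 3p strand by 193 to 1 (21st of 120). The median imbalance over the 120 pairs, whichever strand was higher, was 18.6 to 1, and the 5p strand was the higher in 70 of them. The miR-194 value compares a strand made by 2 genes with one whose sequence stands in a single gene.

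After irradiation without the drug, none of the 4 members passed the test against control, although the lowest level of the guide strand miR-192-5p in the study was in this group. miR-192-5p was at 86249, 69802, 61962 and 87437 CPM in control libraries 1 to 4 and at 54674, 34750, 49413 and 67980 CPM in irradiated libraries 1 to 4. Irradiated libraries 1 to 3 lay below every control, while irradiated library 4 lay within the control range, so the groups overlapped. The mean went from 76362 ± 12528 (SD, n = 4) to 51704 ± 13741 CPM (SD, n = 4). The difference was -0.56 as a log2 fold change (SE 0.213, edgeR adjusted p = 0.134), which is 0.677 times the control level, with a 95% interval not adjusted for multiple tests of 0.494 to 0.928. By unadjusted p, miR-192-5p ranked 59th of 419. Over all miRNAs 1.67% were called in this comparison, and 7.16% had no overlap between the groups, against 0 of 4 members for each. The unadjusted p of miR-192-5p in edgeR's test was 0.0188, and it was the sole member under 0.05 before adjustment, as were 22.2% of all miRNAs. DESeq2 called 39 of the 350 miRNAs to which it gave an adjusted p, or 11.1%.

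**Figure D2:**
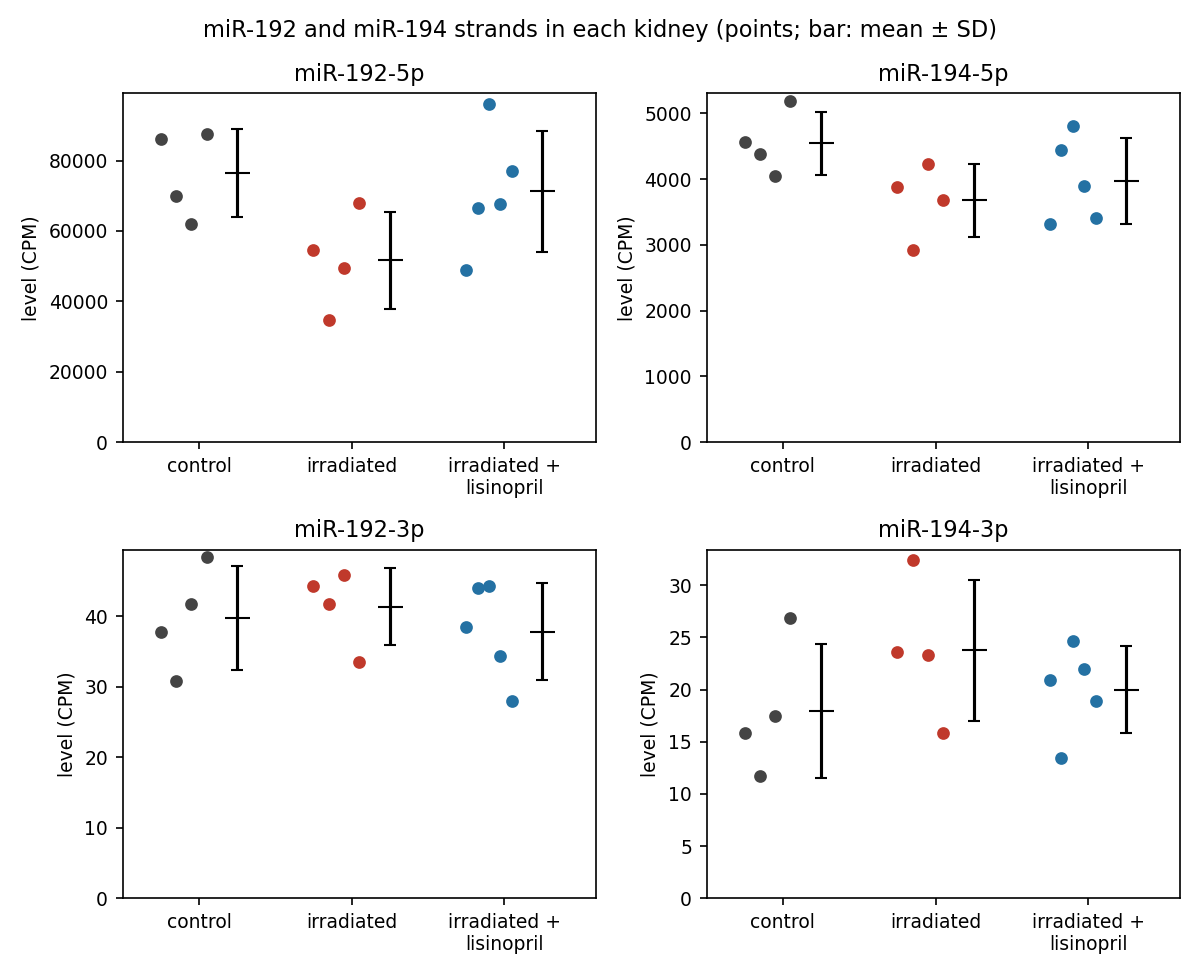
Level in CPM of each strand in each kidney (points), and the mean ± SD of each group of 4 control, 4 irradiated and 5 lisinopril-treated irradiated rats; axes start at 0 and differ between panels. For miR-192-5p irradiated libraries 1 to 3 lie under all controls and the fourth, at 67980 CPM, does not; all groups overlap in all panels.

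The size of the difference depended on single libraries and on the scaling. Of 19 alternative fits, 18 left miR-192-5p short of the threshold, as the main fit did. Without irradiated library 4 the log2 fold change of miR-192-5p was -0.71 and the miRNA passed (adjusted p = 0.0361 by edgeR), in a fit that called 14% of 429 miRNAs. Without irradiated library 2 it moved the other way, to -0.41 (adjusted p = 0.399 by edgeR). When libraries were scaled by their totals alone, the log2 fold change was -0.32 (adjusted p = 0.232). That scaling also moved the median over all tested miRNAs from 0.02 to 0.26, and relative to this median miR-192-5p stood at -0.58 under both scalings. A change of scaling shifts all miRNAs nearly alike, so this distance could hardly differ and is no separate check of the difference. In bulk RNA, fewer tubule cells and less of a miRNA per tubule cell cannot be told apart.

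miR-194-5p, the guide strand of the cluster partner, was at 4563, 4382, 4040 and 5188 CPM in control libraries 1 to 4 and at 3880, 2922, 4233 and 3676 CPM in irradiated libraries 1 to 4. Irradiated library 3 lay above the lowest control and the other irradiated libraries lay below all controls. The difference was -0.31 as a log2 fold change (SE 0.146, edgeR adjusted p = 0.229), with means of 4543 ± 481 and 3678 ± 554 CPM (SD, n = 4 each) and an interval of 0.652 to 1.00 times the control level. Scaled by library totals it was -0.05 (adjusted p = 0.827), and relative to the median of all miRNAs -0.31, against -0.32 with the main scaling. Here too the scaling could hardly change the distance from the median.

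The passenger strands, in contrast to the guides, had log2 fold changes above 0, and neither passed; that of miR-192-3p was below 0 without control library 2 or irradiated library 3. miR-192-3p was at 37.9, 30.8, 41.8 and 48.5 CPM in control libraries 1 to 4 and at 44.3, 41.8, 45.9 and 33.5 CPM in irradiated libraries 1 to 4. It stood at 0.04 as a log2 fold change (SE 0.181, edgeR adjusted p = 0.925), with an interval of 0.786 to 1.34 times the control level. For miR-194-3p the values were 15.8, 11.7, 17.5 and 26.9 CPM in the controls and 23.6, 32.4, 23.3 and 15.8 CPM in the irradiated libraries. The difference was 0.36 as a log2 fold change (SE 0.262, edgeR adjusted p = 0.41), with an interval of 0.87 to 1.89. It was 0.17 without irradiated library 2, 0.58 without control library 4, and 0.60 with library totals alone, none of which passed. The lowest of these values, in control library 2, rests on 11 counts, whose exact 95% Poisson interval is 5.84 to 20.9 CPM. miR-215, which shares the seed of miR-192-5p but comes from chromosome 13, had means of 18.0 ± 3.69 and 15.7 ± 4.11 CPM (SD, n = 4 each) and differed by -0.16 on the log2 scale (SE 0.221, adjusted p = 0.679 by edgeR), which was 0.08 when libraries were scaled by their totals.

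**Figure D3:**
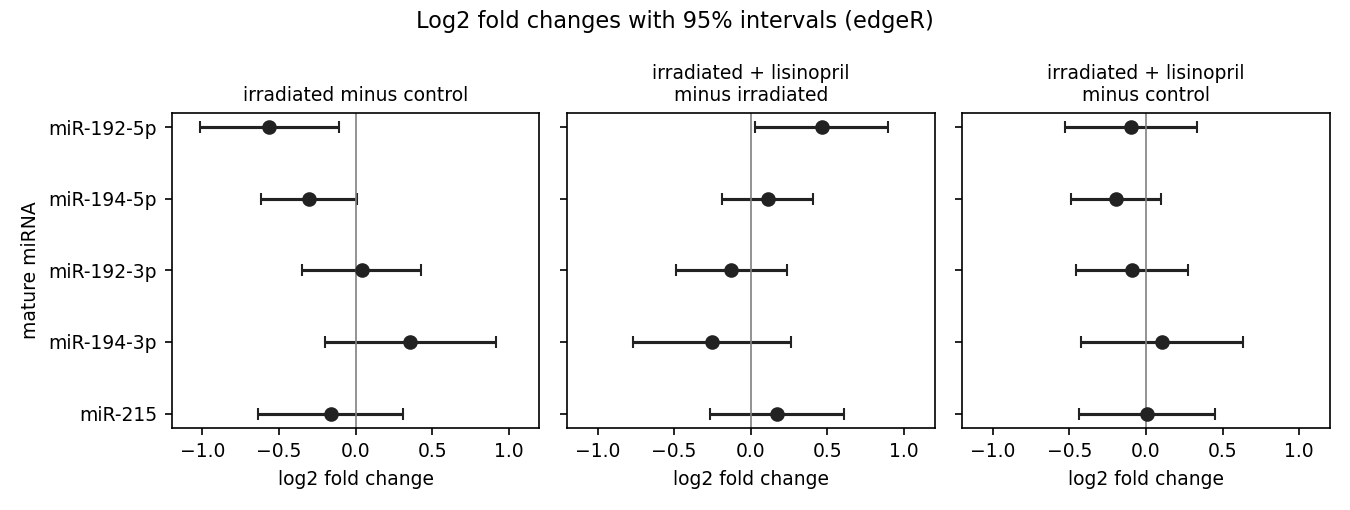
Log2 fold changes (points) with 95% intervals from edgeR, not adjusted for multiple tests (bars), of the 4 strands and miR-215 in the 3 comparisons. The interval of miR-192-5p lies below 0 for irradiated minus control (-0.56) and above 0 for the drug added to irradiation (0.46); neither passes the adjusted threshold, and the remaining 13 intervals include 0.

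Ratios of 2 counts within a library do not depend on how libraries are scaled, and were used to ask whether the cluster partners and the strands moved together. The ratio of miR-192-5p to miR-194-5p was 18.9, 15.9, 15.3 and 16.9 in control libraries 1 to 4, and 14.1, 11.9, 11.7 and 18.5 in irradiated libraries 1 to 4. Again irradiated libraries 1 to 3 were below all controls and irradiated library 4 was within their range. The difference of the mean log2 ratios was -0.28 (two-sided exact permutation test, p = 0.171, adjusted p = 0.286 over 9 ratio comparisons).

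The same libraries separated in the strand ratio of miR-192. miR-192-5p stood at 2278, 2263, 1484 and 1804 reads per read of miR-192-3p in the controls and at 1234, 831, 1076 and 2028 in the irradiated libraries. This gave a log2 difference of -0.66 (two-sided exact permutation test, p = 0.0857, adjusted p = 0.232). For miR-194 the 5p to 3p ratio was 288, 375, 231 and 193 in the controls and 165, 90.2, 182 and 232 in the irradiated libraries, a log2 difference of -0.74 (two-sided exact permutation test, p = 0.0857, adjusted p = 0.232). The smallest p that 4 against 4 allows in this exact test is 0.0286. A single ratio at that p would not pass after adjustment over the 9 comparisons. None of the 3 ratios passed between irradiated and control kidneys, which does not show that the cluster partners or the strands moved together.

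**Figure D4:**
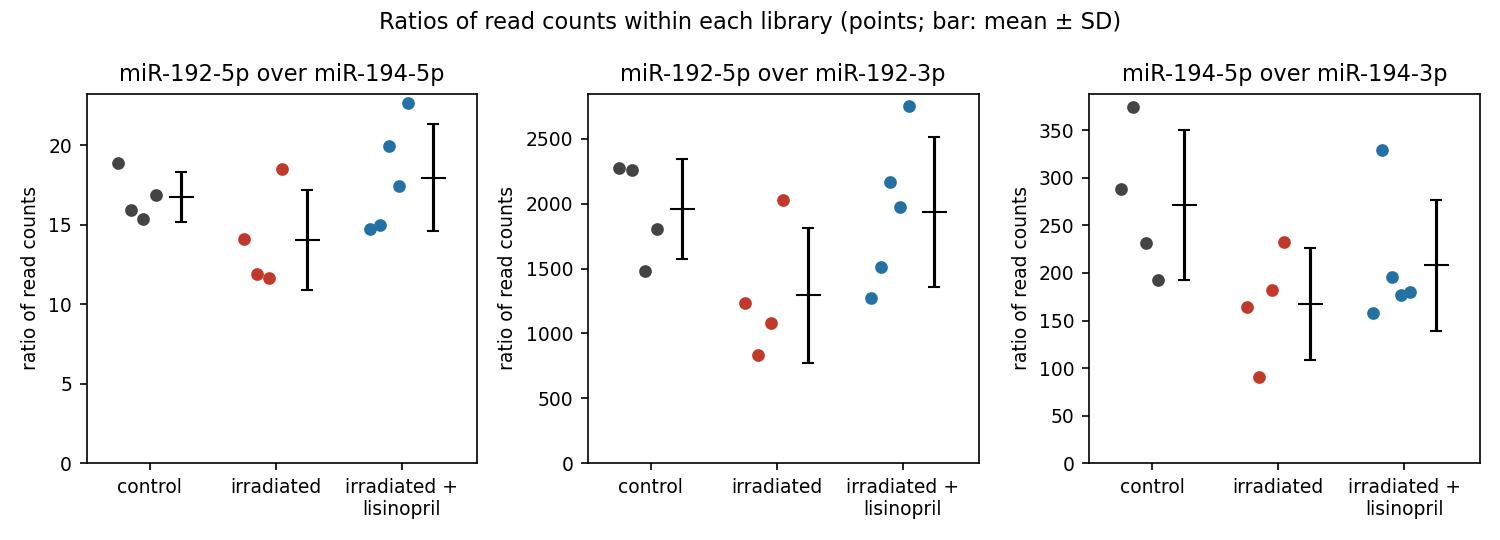
Ratios of read counts within each library (points) with the group mean ± SD, for miR-192-5p over miR-194-5p, miR-192-5p over miR-192-3p and miR-194-5p over miR-194-3p; axes start at 0. The irradiated libraries have the lowest mean in each panel, and for the first ratio irradiated library 4 lies at 18.5, beside controls at 15.3 to 18.9.

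Adding lisinopril to irradiation asks what the drug changes in rats that were all irradiated. None of the 4 members passed, in a comparison that called 0% of all 419 miRNAs (edgeR; 15% at an unadjusted p under 0.05; 2.39% of the 376 with an adjusted p called by DESeq2; 2 miRNAs called by limma-voom and 33 with sample quality weights) and in which 4.3% had no overlap, again against 0 of 4 members. miR-192-5p was at 48849, 66623, 95973, 67700 and 77135 CPM in lisinopril libraries 1 to 5, a mean of 71256 ± 17188 CPM (SD, n = 5). Lisinopril libraries 3 and 5 lay above all 4 irradiated libraries without the drug, lisinopril libraries 1, 2 and 4 lay within their range, and 15 of the 20 pairs of a treated and an untreated rat had the higher value in the treated one. The difference was 0.46 as a log2 fold change (SE 0.203, edgeR adjusted p = 0.291), or 1.38 times the level without the drug, with an interval of 1.02 to 1.86.

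Depth differed between the groups. The 4 irradiated libraries and lisinopril library 1 held 4885082 to 6786492 rat mature counts, and lisinopril libraries 2 to 5 held 9026578 to 11095939. Both lisinopril libraries above the untreated range of miR-192-5p, at 95973 and 77135 CPM, were of the deeper set. Inside that range, lisinopril libraries 2 and 4 were of the deeper set and lisinopril library 1 of the shallower. Lisinopril library 1 had the lowest level of its group, at 48849 CPM. Among the untreated libraries the deepest, library 2, had the lowest level. The part of depth in the result was not tested. Without irradiated library 4 the log2 fold change was 0.61 (adjusted p = 0.0594 by edgeR, in a fit that called 11% of 429 miRNAs), without irradiated library 2 it was 0.30 (adjusted p = 0.668), and with library totals alone it was 0.28 (adjusted p = 0.364), while the median of all miRNAs went from -0.02 to -0.21.

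For miR-194-5p lisinopril libraries 1 to 5 were at 3317, 4436, 4810, 3888 and 3402 CPM, with a mean of 3970 ± 648 CPM (SD, n = 5). They overlapped the untreated libraries over most of the range. The difference was 0.11 as a log2 fold change (SE 0.138, edgeR adjusted p = 0.701; interval 0.88 to 1.32 times the untreated level), and it was -0.07 with library totals alone. Among the passenger strands, miR-192-3p was at 38.4, 44.1, 44.4, 34.3 and 28.0 CPM and miR-194-3p at 20.9, 13.5, 24.6, 21.9 and 18.9 CPM. Their log2 fold changes were -0.13 (SE 0.170, adjusted p = 0.717) and -0.25 (SE 0.243, adjusted p = 0.604), both by edgeR. With 1 library left out, that of miR-194-3p ranged from -0.43 (irradiated library 4) to -0.07 (irradiated library 2), and that of miR-192-3p from -0.24 (irradiated library 4) to -0.04 (lisinopril library 5). With library totals alone they were -0.47 and -0.31. The value of miR-215 was 0.17 on the log2 scale (SE 0.205, adjusted p = 0.696 by edgeR), and -0.01 with library totals alone.

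The ratios of lisinopril libraries had higher means than those of irradiation alone, and the groups overlapped in all 3. That of miR-192-5p to miR-194-5p was 14.7, 15.02, 19.95, 17.4 and 22.7 in lisinopril libraries 1 to 5, a log2 difference of 0.36 from irradiation alone (two-sided exact permutation test, p = 0.103, adjusted p = 0.232). The miR-192 strand ratio was 1271, 1511, 2164, 1971 and 2750, a log2 difference of 0.61 (two-sided exact permutation test, p = 0.103, adjusted p = 0.232). For the miR-194 strands it was 158, 329, 195, 177 and 180, a log2 difference of 0.34 (two-sided exact permutation test, p = 0.413, adjusted p = 0.531). The smallest p that 4 against 5 allows in this exact test is 0.00794, and a single ratio at that p would not pass the adjustment either.

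Irradiated rats on lisinopril were also set against control, which asks how far kidneys under the drug stood from those never irradiated. This comparison shares its controls with the first and its treated rats with the second. All 4 members missed the threshold, while 6.21% of all miRNAs were called, 22.7% had an unadjusted p under 0.05 and 13.4% had no overlap. The log2 fold changes were -0.10 for miR-192-5p (interval 0.693 to 1.26 times control, adjusted p = 0.837), -0.19 for miR-194-5p (0.713 to 1.07, adjusted p = 0.472), -0.09 for miR-192-3p (0.73 to 1.21, adjusted p = 0.837) and 0.10 for miR-194-3p (0.744 to 1.55, adjusted p = 0.85), all by edgeR. miR-215 was at 17.7 ± 3.32 CPM (SD, n = 5) under the drug, a log2 fold change of 0.01 from control that changed sign with RLE size factors (-0.02). The ratio of miR-192-5p to miR-194-5p differed by 0.08 on the log2 scale (two-sided exact permutation test, p = 0.587, adjusted p = 0.661), that of the miR-192 strands by -0.05 (exact p = 0.865, adjusted p = 0.865) and that of the miR-194 strands by -0.39 (exact p = 0.19, adjusted p = 0.286).

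Rats of the same group differed from each other more in miR-192-5p than in miR-194-5p. The pooled standard deviation within groups was 0.342 on the log2 CPM scale for miR-192-5p, the 24th largest of the 151 miRNAs averaging 100 CPM or more, and 0.211 for miR-194-5p, the 86th largest; the median of the 151 was 0.223. For the rarer strands it was 0.254 for miR-192-3p and 0.408 for miR-194-3p, where the median over all 419 miRNAs was 0.302.

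Across the 13 libraries the guide strands of the cluster partners varied together. Between miR-192-5p and miR-194-5p Pearson's r of log2 CPM was 0.75 (permutation p = 0.00353, adjusted p = 0.0212 over the 6 pairs of members) and Spearman's rho was 0.69 (permutation p = 0.0116, adjusted p = 0.0639). The permutations ran over all libraries regardless of group, so these p-values also take in differences between groups. The within-group r was 0.69 and was not tested. Without irradiated library 2 and lisinopril library 3, the 2 libraries farthest from the median of miR-192-5p, r was 0.50 (permutation p = 0.119), so the relation rests in part on them. Both values of a library share its scaling. An r of this size was not particular to the cluster partners. miR-16-5p, which is not of either hairpin, had r = 0.92 with miR-192-5p and 0.75 with miR-194-5p. The 2 passenger strands, miR-192-3p and miR-194-3p, had r = 0.50 (permutation p = 0.0838, adjusted p = 0.251) and rho = 0.64 (permutation p = 0.0213, adjusted p = 0.0639), and without the 2 farthest libraries r = 0.38. For guide and passenger of the same name no relation passed: r was -0.15 for miR-192 (rho -0.10; permutation p = 0.621 and 0.751) and -0.25 for miR-194 (rho -0.08; permutation p = 0.418 and 0.806). The counts of miR-194-5p sum 2 hairpins, so neither its r with miR-194-3p nor that with miR-192-5p belongs to a single cluster alone.

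**Figure D5:**
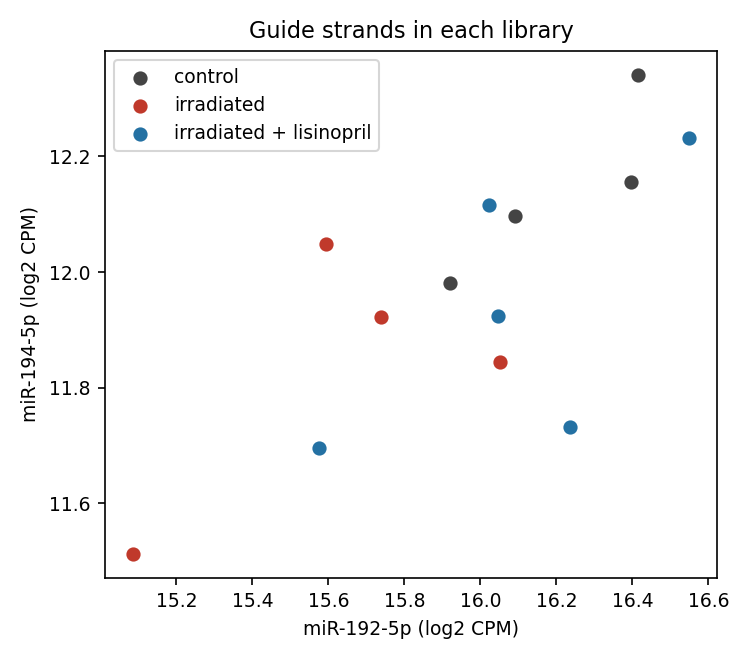
miR-194-5p against miR-192-5p in log2 CPM, a point per library, coloured by group. The points rise from irradiated library 2 at the lower left to lisinopril library 3 and control library 4 at the upper right, with r = 0.75 over 13 libraries and 0.50 without the 2 farthest on the horizontal axis.

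The 149 other miRNAs averaging 100 CPM or more were ranked by Pearson's r of log2 CPM with each guide strand over the 13 libraries, as a description without a test. Closest to miR-192-5p were miR-16-5p (r = 0.92), a widely expressed regulator of the cell cycle, miR-3068-3p (0.91), miR-21-5p (0.89), induced in injury and fibrosis, miR-30a-5p (0.88) and miR-3590-5p (0.83). Closest to miR-194-5p were the endothelial miR-126a-3p (0.75), miR-16-5p (0.75), miR-3068-3p (0.75), miR-421-3p (0.73) and miR-26a-5p (0.73). miR-16-5p and miR-3068-3p stand in both sets of 5. The values share library, depth and scaling.

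Other miRNAs of the pathways around miR-192 were read from 3 lists. Of 12 miRNAs of a TGF-beta-linked circuit, 9 were tested and 0 passed in any of the 3 comparisons. Their median log2 fold change was -0.12 after irradiation (7 of 9 below 0), beside 0.02 over all tested miRNAs. The 2 most abundant were miR-21-5p, at -0.60 (SE 0.238, adjusted p = 0.143 by edgeR), and miR-29a-3p, a repressor of collagen genes, at -0.04 (SE 0.0937, adjusted p = 0.807), which was 0.20 with library totals alone. Under lisinopril against irradiation alone the median was -0.03, with miR-21-5p at 0.42 (adjusted p = 0.397 by edgeR) and miR-29a-3p at -0.11 (adjusted p = 0.534). Without irradiated library 4 miR-21-5p passed in both of these comparisons, at -0.86 (adjusted p = 0.0229) and 0.67 (adjusted p = 0.041). Without irradiated library 2 the values were -0.42 (adjusted p = 0.41) and 0.23 (adjusted p = 0.795), and with library totals alone -0.34 (adjusted p = 0.229) and 0.25 (adjusted p = 0.44), by edgeR.

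Among 11 p53-linked miRNAs, all tested, 2 rose after irradiation and 0 fell, where 0.477% of all miRNAs rose and 1.19% fell. They were miR-34a-5p (log2 fold change 2.54, SE 0.149, adjusted p = 1.44e-08 by edgeR), the best known miRNA target of p53, and miR-34c-5p of the same family (0.58, SE 0.126, adjusted p = 0.0216). The call of miR-34c-5p was lost in 7 of 19 alternative fits (adjusted p = 0.0554 to 0.0936 by edgeR), 5 of which left out 1 library: control 2, 3 or 4, or irradiated 1 or 3. The median of the list was 0.20, and miR-215 was among the 2 members below 0. Under the drug against control only miR-34a-5p of this list passed (2.58, SE 0.145, adjusted p = 8.19e-09), where 0.716% of all miRNAs rose and 5.49% fell, and between the irradiated groups 0 of 11 passed. The mean level of miR-34a-5p was 52.4 CPM in control and 306 CPM in irradiated kidneys. In the same comparison the guide strands of miR-192 and miR-194, which p53 can also induce, had the values of -0.56 and -0.31 given above, neither passing.

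Of 13 miRNAs enriched in kidney epithelium, 0 passed in any comparison. After irradiation 10 of the 13 were below 0 (median -0.16), and under lisinopril against irradiation alone 10 of the 13 were above 0 (median 0.17, beside -0.02 over all). The 2 most abundant were miR-10a-5p, at -0.54 (SE 0.176, adjusted p = 0.0931 by edgeR) and 0.41 (SE 0.168, adjusted p = 0.261), and miR-30a-5p, at -0.41 (SE 0.165, adjusted p = 0.143) and 0.35 (SE 0.158, adjusted p = 0.307). Without irradiated library 4 both passed after irradiation, at -0.61 (adjusted p = 0.0444) and -0.54 (adjusted p = 0.0352). Without control library 2 miR-10a-5p was at -0.32 (adjusted p = 0.246), and with library totals alone miR-10a-5p was at -0.25 (adjusted p = 0.163) and miR-30a-5p at -0.16 (adjusted p = 0.375), by edgeR. miR-10a-5p also passed after irradiation by DESeq2 (-0.53, adjusted p = 0.0497), and under lisinopril against irradiation alone by limma-voom with quality weights (0.50, adjusted p = 0.034). In that second comparison, library totals alone gave 0.22 for miR-10a-5p and 0.16 for miR-30a-5p. The comparisons share the irradiated libraries, so their values are given side by side only.

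Markers of other cell types in the kidney were read in the same fits, and 0 of the 22 entries tested in 6 lists passed in any comparison. Summed levels after irradiation, against control, were 1630 to 1921 and 1818 to 2274 CPM for 6 leukocyte markers, 790 to 4229 and 918 to 2104 CPM for 4 erythroid markers, and 8537 to 14043 and 11645 to 14615 CPM for 2 endothelial markers. They were 33049 to 38499 and 28747 to 40770 CPM for 5 smooth muscle and fibroblast markers, 1954 to 2422 and 1848 to 2217 CPM for 3 neural and adrenal markers, and 29.0 to 43.1 and 29.4 to 39.7 CPM for 2 skeletal muscle markers. Under the drug the ranges were 1290 to 1780, 674 to 3491, 10147 to 15599, 27833 to 55904, 1675 to 2138 and 23.5 to 38.9 CPM in the same order. None of these markers was at 0 throughout a group. All the ranges overlapped between irradiated and control kidneys, while the leukocyte sum under the drug lay below that of every control. In that comparison 13.4% of all single miRNAs had no overlap. The largest part of the leukocyte sum was miR-146a-5p, with means of 1177 CPM in control and 683 CPM under the drug (adjusted p = 0.0745 by edgeR). miR-150-5p was the 1 of the 6 that was higher, with means of 478 and 617 CPM (adjusted p = 0.616 by edgeR). Median log2 fold changes after irradiation were -0.58 for the leukocyte list (5 of 6 below 0), 0.53 for the erythroid list (4 of 4 above 0), -0.24 for the endothelial list, 0.02 for smooth muscle and fibroblast, -0.08 for neural and adrenal and -0.39 for skeletal muscle. The liver marker miR-122-5p was not among the 460 rat miRNAs under that name. Of 4 skeletal muscle markers 2 were measured, and of 4 neural and adrenal markers 3. Kidney tubule markers (miR-192-5p and miR-194-5p themselves, miR-204-5p, miR-30a-5p and miR-10a-5p) summed to 425651 to 736939 CPM in control, 345289 to 478357 CPM in irradiated and 442254 to 572676 CPM in lisinopril libraries. The largest part of this sum was miR-10a-5p, with a mean of 345162 CPM over all libraries, so the sum mainly follows that miRNA. Control library 2, where that miRNA held 44.2% of rat counts (28.9% to 37.7% in the others), gave the top of the control range. The medians were 553216, 380234 and 563866 CPM in control, irradiated and lisinopril libraries. miR-204-5p, with a mean of 237 CPM, had a log2 fold change of 0.05 after irradiation (adjusted p = 0.852 by edgeR). The part of cell composition in the values of miR-192-5p was not tested.

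Entries for miR-192 of other species were also present in the count table. That of the sea lamprey (pma-miR-192-5p) held 6 to 79 counts per library, 0.00358% to 0.0106% of the miR-192-5p counts, and that of the zebra finch (tgu-miR-192) 1 to 32 counts, 0.000282% to 0.0061%. They were not added to the rat values.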

How the data were processed

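Small RNA libraries (TruSeq kit, Trizol RNA of kidney, 1 library per rat, 13 rats) were deposited as raw read counts per miRNA; the counts were used as deposited. Trim Galore 0.2.5, Bowtie 1.1.1 and the rn4 build are named in the submitters' processing notes. The assignment of reads matching several miRNAs was not given in the sources used here. Reads carry no molecular identifiers, so that intervals and limits of detection cover counting error only.

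Of 460 rat miRNAs, edgeR's filterByExpr kept 419. TMM scaling gave factors of 0.787 to 1.19, and all 13 libraries entered a single quasi-likelihood fit by group (edgeR 4.0.16, R 4.3.3; biological coefficient of variation 0.247), with Benjamini-Hochberg adjustment over the 419. The shared fit gives all groups one estimate of the spread. Levels are CPM after this scaling, with a prior count of 2 on the log2 scale. Ratios were compared by two-sided exact permutation tests adjusted over 9 comparisons, and correlations by 100000 permutations (scipy 1.17.1). The fit was tested on simulated data. Alternatives were RLE factors, library totals, library sizes without miR-10a-5p, DESeq2 1.42.0, no filter on low counts, a minimum mean of 10 CPM, voom in limma 3.58.1 with and without quality weights, robust dispersion, fits of only the 2 groups compared, addition of other-species entries, a pseudocount of 10 in ratios, and leaving out each library.

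Members and lists were chosen with earlier results of these data known. Named miRNAs are the members, miR-215, the 5 most similar to each guide strand, and in the 3 pathway and tissue lists those that passed or else the 2 most abundant. Marker lists are given by sums and counts, with miR-204-5p, miR-146a-5p and miR-150-5p named where the markers of a list differed. The labels name rats, but no batch, litter or pairing; replicate numbers only name libraries. No 2 libraries of a group agreed within sampling noise (22 pairs, chi-square per degree of freedom of at least 102). Sequences are from RefSeq (GRCr8), and promoters were not used here.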

Additional observations from a re-analysis of the deposited data

Results flagged for a closer look

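In 24 groups of 4 or 5 values checked, 3 held a library far from the others, where chance gives about 1 in 20. miR-215 stood at 21.9 CPM in irradiated library 4, against 13.5 to 13.8 CPM in the other irradiated libraries; this is also the library with the highest miR-192-5p level of its group (67980 CPM). miR-215 stood at 11.8 CPM in lisinopril library 1, against 18.4 to 19.6 CPM in the others, and miR-192-5p was lowest of its group there too (48849 CPM). In control library 2, by contrast, miR-215 was highest of its group (22.3 CPM) while miR-192-5p, at 69802 CPM, was below control libraries 1 and 4. The relation of miR-215 to miR-192-5p was not tested. The ratio of miR-194-5p to miR-194-3p was 329 in lisinopril library 2, against 158 to 195 in the other lisinopril libraries.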

How the results depend on the processing

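For the members and their ratios, 323 alternative values were computed. Of these, 309 kept direction and side of the threshold, 1 passed and 13 changed sign, all 13 from values that had not passed. No member or ratio passed in the main tests, so keeping the side means only not passing again. The ratio tests could hardly pass after adjustment. For miR-192-5p in irradiated minus control, the log2 fold change was -0.71 to -0.41 when 1 library was left out, and it passed without irradiated library 4 (adjusted p = 0.0361; range over 19 alternatives 0.0361 to 0.399, edgeR, DESeq2 and limma). Left-out ranges that crossed 0 were -0.043 to 0.14 for miR-192-3p in irradiated minus control, and, in lisinopril minus control, -0.22 to 0.0077 for miR-192-5p, -0.17 to 0.019 for miR-192-3p, -0.0057 to 0.37 for miR-194-3p, -0.19 to 0.090 for the miR-192 strand ratio (0.043 with a pseudocount of 10) and -0.0045 to 0.15 for the ratio of miR-192-5p to miR-194-5p. With library totals alone, values changed sign for miR-194-5p (-0.072), miR-215 (-0.014) and miR-34a-5p (-0.15) in lisinopril minus irradiated, for miR-215 (0.075) and miR-29a-3p (0.20) in irradiated minus control, and for miR-30a-5p (0.0082) in lisinopril minus control. In lisinopril minus irradiated, miR-34a-5p was -0.0027 with a mean of at least 10 CPM and -0.051 to 0.13 with 1 library left out. In lisinopril minus control, miR-215 was -0.016 with RLE factors, -0.046 with a mean of at least 10 CPM and -0.095 to 0.12 with 1 library left out; miR-10a-5p was 0.014 with quality weights and -0.24 to 0.086 with 1 left out; miR-30a-5p was 0.0047 with quality weights, 0.0081 with other-species entries and -0.15 to 0.0077 with 1 left out. Calls over all miRNAs numbered 7, 0 and 26 in irradiated minus control, lisinopril minus irradiated and lisinopril minus control; they ranged over 1 to 39, 0 to 33 and 17 to 50 by setting, and over 1 to 60, 0 to 47 and 13 to 32 with 1 library left out. The cause of these changes was not tested. Without miR-10a-5p in the library sizes that miRNA has no value. No paired analysis was possible because the labels carry no replicate number shared between groups. Depth limits the 3p strands and miR-215 most, above all in control library 2.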
